A study of Mus musculus with 4 samples.

Results

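The lysosomal hydrolases of glycans and lipids are the enzymes, with their activators, that take apart the sugar chains and membrane lipids a cell delivers to its lysosomes. They were chosen by gene name, as 32 listed genes, from a series that measured 22180 named genes in macrophages sorted from mouse ear skin. Of the 32, 30 had a row of their own on the array, and all 30 passed the filter on dim genes. Glb1, the beta-galactosidase, and Hyal1, a hyaluronidase, appeared only in rows shared by several gene symbols, and no value is given for them. The series compared a CX3CR1low with a CX3CR1bright subset, 2 arrays each. The litters of a subset's samples were independent, and whether the subsets shared litters is not given in the sources used here. Every sample was a pool of 3 to 6 untreated adult C57Bl/6 mice of genotype Cx3cr1+/gfp, so both subsets carried 1 reporter allele in place of 1 copy of the receptor gene. Values are log2 levels made by RMA, which corrects background, equalises the arrays and summarises each gene's probes. Differences are CX3CR1bright minus CX3CR1low, with the standard error (SE) of the limma fit and n = 2 per subset.

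Macrophages take up dying cells, matrix fragments and lipoproteins, and their lysosomes degrade what was taken up. A glycan chain is removed from its end by exo-enzymes that act in a fixed order, each exposing the substrate of the next, so that loss of any one stores the undigested rest, as in the mucopolysaccharidoses. Sphingolipids are degraded with the help of small activator proteins that lift the lipid out of the membrane. In the dermis the matrix that reaches these enzymes is rich in hyaluronan, dermatan sulfate and the heparan sulfate of basement membranes.

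Transcripts of most hydrolases lay lower in CX3CR1bright than in CX3CR1low macrophages. The difference was negative for 29 of the 30 genes, or for 26 after quantile normalization or cyclic loess of the arrays, with a median of -0.54, against -0.070 over the 13133 genes tested, of which 57.5% were negative. On 26 genes (86.7%) both CX3CR1bright arrays lay below both CX3CR1low arrays, which was so for 31.5% of all tested genes. The lone gene on the other side, with both CX3CR1bright arrays higher (18.9% of all tested genes), was the sulfatase gene Arsb. Of the lower genes 9 differed by 2-fold or more, namely Hpse, Sgsh, Hyal2, Naglu, Gaa, Smpd1, Hgsnat, Manba and Idua, where 2.94% of all tested genes did. Gusb, Fuca1 and Sumf1 overlapped between the subsets.

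No single hydrolase passed the threshold, an adjusted p of 0.05 (limma, Benjamini-Hochberg over all tested genes), which 0.137% of tested genes passed. The members' adjusted p-values ran from 0.0761 for Naglu to 0.964 for Fuca1. At an unadjusted p under 0.05, 15 of 30 were lower, where 11.8% of tested genes were, and 1, Arsb, was higher, where 7.03% were. When the variance was allowed to follow the signal intensity, 8 were lower and 1 higher at the adjusted threshold, against 1.49% and 0.853% of tested genes. With genes limited to those above the 75th percentile on all 4 arrays, 9 were lower and 1 higher of the 26 still tested, against 5.08% and 2.00%. At an unadjusted p under 0.05 (limma) with this limit, 15 of the 26 were lower, against 19.9% of genes. The 7 genes past the adjusted threshold under both settings were Naglu, Hgsnat, Idua, Manba, Man2b2 and Gaa, all lower, and Arsb.

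**Figure D1:**
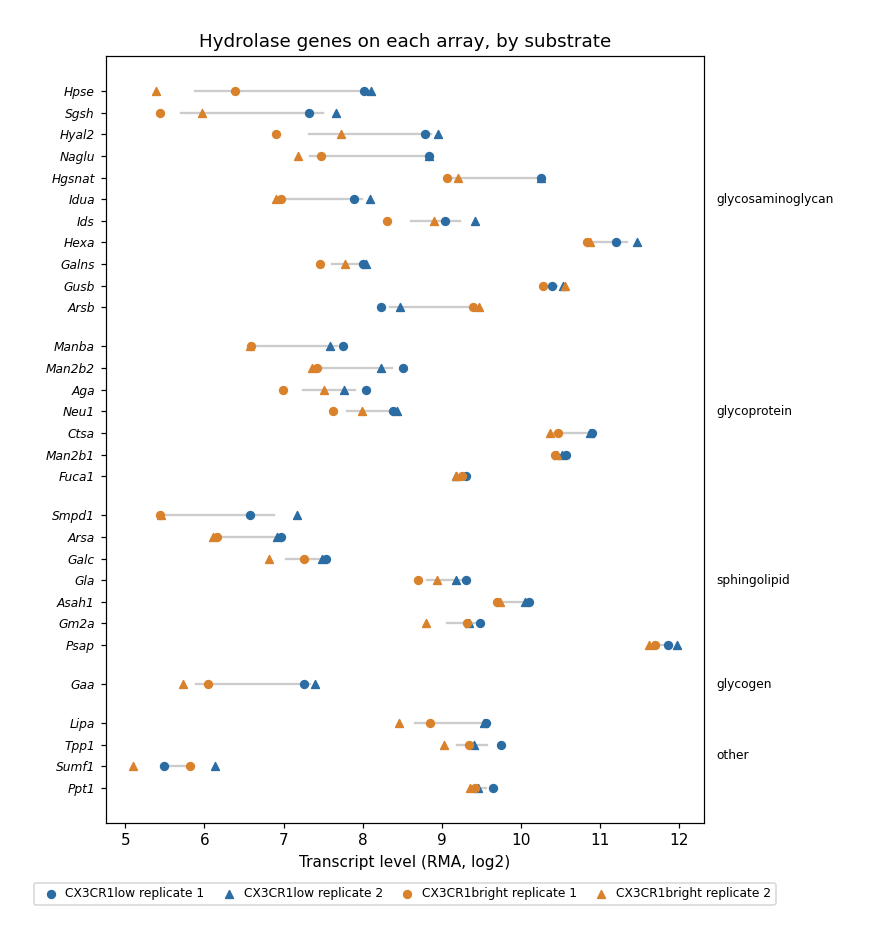
Level of each of the 30 measured hydrolase genes (RMA, log2) on the 2 CX3CR1low arrays (blue) and the 2 CX3CR1bright arrays (orange), by substrate class, with a grey line between the subset means. On 26 genes both orange points lie to the left of both blue points, and on Arsb both lie to the right.

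Both sorted subsets carried macrophage transcripts. All 12 measured genes of a 13-gene macrophage list lay between 8.14 and 12.2 on every array, where the array medians were 3.65 to 3.68. Their median difference was -0.34, with 9 of 12 negative, against 57.5% of all tested genes, and 3, Fcgr1, Cd14 and Adgre1, positive. None of the 12 passed the adjusted threshold (limma), and 3 were lower at an unadjusted p under 0.05, where 11.8% of tested genes were. Cx3cr1, which defined the gate, stood at 3.62 in CX3CR1low and 8.43 in CX3CR1bright cells. Lists of marker genes of other skin cells were read in the same way, and none of their genes passed the adjusted threshold (limma). Higher at an unadjusted p under 0.05 (limma) were 6 of 9 fibroblast, 6 of 8 dendritic cell and 3 of 10 tested keratinocyte genes. This was so for 1 of 4 tested T cell genes and for 7.03% of all tested genes. Lower were 2 of 6 tested mast cell genes and 1 of 5 tested endothelial genes, against 11.8%, and 1 endothelial gene was higher. The smallest adjusted p of these lists was 0.0541 (limma), for the dendritic cell gene Ccr7. Relative to the CX3CR1low mean, the median of 11 keratinocyte genes, all with positive differences, lay at 0.51 and 2.05 on CX3CR1bright replicates 1 and 2. That of 9 fibroblast genes, also all positive, lay at 0.97 and 0.91, and that of 8 dendritic cell genes, 6 of them positive, at 1.37 on both arrays. The 5 T cell genes lay at 0.96 and -0.095. The median differences of 7 endothelial and 5 melanocyte genes were -0.13 and 0.11, and both lists held genes of either sign. The 7 mast cell genes had negative differences, with a median of -0.30, and 4 were lower without overlap, against 31.5% of all tested genes. Cpa3, a mast cell protease gene and the brightest of the 7, stood between 9.78 and 10.04 on the 4 arrays. The dimmest, Fcer1a, had a mean level of 3.06 and was not tested. The part of these cells in the hydrolase differences was not tested. Fewer cells of a type and less RNA per cell cannot be told apart in sorted bulk samples.

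**Figure D2:**
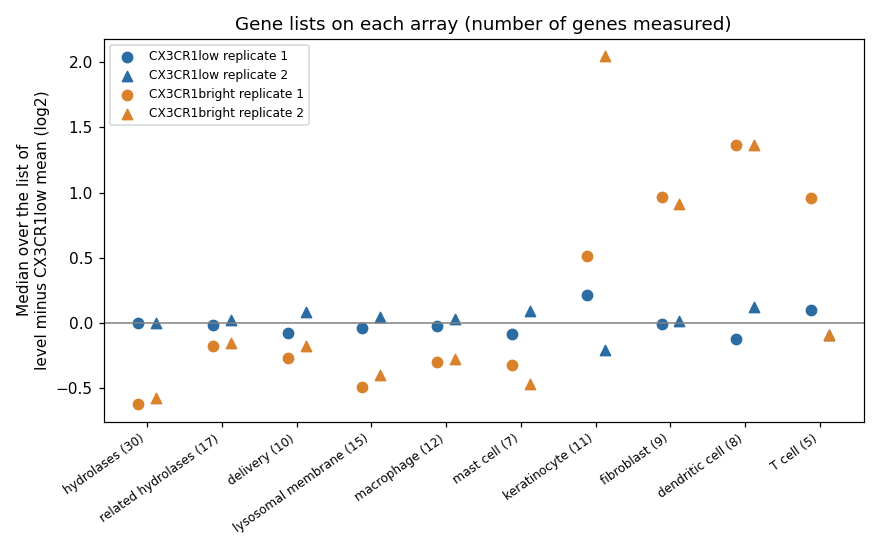
Median over each gene list of the level minus the gene's CX3CR1low mean (log2), for each of the 4 arrays, with the number of measured genes in brackets. The hydrolases lie at -0.63 and -0.58 on the CX3CR1bright arrays, the macrophage list at -0.30 and -0.28, and the keratinocyte list at 0.51 and 2.05.

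The promoters of part of these genes hold the letters that TFEB and TFE3, the basic helix-loop-helix factors of lysosomal genes, are known to bind. The core is the palindrome CACGTG. It was searched in RefSeq windows (GRCm38.p6) of 300 bases, 250 before and 50 after each start, which were at hand for 26 of the 30 measured genes, all but Hgsnat, Galns, Aga and Asah1. The core stood in 7 of the 26 (26.9%), namely Naglu, Sgsh, Gaa, Arsa, Ctsa, Gla and Sumf1, and in 7.15% of all 32851 windows. Among the 10304 tested genes with a window, 11.2% held it. All 7 also held the longer form TCACGTG or its complement CACGTGA, which includes the core and stood in 6.49% of those tested genes. The symmetric form TCACGTGA, which contains both, stood in Ctsa, Gla and Sumf1 and in 2.01% of tested genes. One stretch per gene is shown, on the gene's own strand with the core in capitals, because these 7 include Naglu, Sgsh and Gaa, which differed by more than 2-fold.

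Naglu: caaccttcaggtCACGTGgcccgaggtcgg
Sgsh: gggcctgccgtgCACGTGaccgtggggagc
Gaa: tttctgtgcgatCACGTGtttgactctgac
Arsa: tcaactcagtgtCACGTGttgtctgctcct
Ctsa: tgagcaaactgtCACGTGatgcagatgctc
Gla: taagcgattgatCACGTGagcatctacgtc
Sumf1: agcaccacaggtCACGTGatctccatgggt

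These stretches lie at chr11:101070009-101070038 (Naglu, plus strand), chr11:119355522-119355551 (Sgsh, minus), chr11:119267811-119267840 (Gaa, plus) and chr15:89477423-89477452 (Arsa, minus). The others lie at chr2:164833749-164833778 (Ctsa, plus), chrX:134601215-134601244 (Gla, minus) and chr6:108185577-108185606 (Sumf1, minus). The core began 11 bases before the start in Sumf1, 12 in Ctsa, 16 in Arsa, 29 in Sgsh, 73 in Naglu, 140 in Gaa and 227 in Gla. Ctsa and Gla each held 1 more core in the window, which in Gla began 194 bases before the start. The 7 genes with the core had differences of -1.79 to -0.36, with a median of -0.81. The 19 without it in the window ran from -2.18 to 1.08, with a median of -0.48. The ranges overlap, and Hpse, Hyal2, Smpd1, Manba and Idua, with differences of at least 2-fold, had no such letters in this window. A match of letters is a description of the sequence and not a measured site.

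The glycosaminoglycan enzymes held the widest spread. Of 13 listed genes 11 were measured, 10 with negative differences, 9 of them without overlap between the subsets, and the class median was -1.06. For comparison, 57.5% of all tested genes were negative and 31.5% were lower without overlap. At an unadjusted p under 0.05 (limma), 6 of the 11 were lower and 1 was higher, against 11.8% and 7.03% of tested genes. The enzymes of heparan sulfate are described first.

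Hpse encodes heparanase, the endo-enzyme that cuts heparan sulfate chains into fragments. It stood at 8.02 and 8.11 on the CX3CR1low arrays and at 6.38 and 5.39 on the CX3CR1bright arrays. Both CX3CR1bright arrays were far below the CX3CR1low pair, and they also differed from each other by more than the CX3CR1low arrays did. The difference was -2.18 ± 0.35, or 4.54-fold lower (limma, adjusted p = 0.0913). A dimmer probe set of the gene differed by -2.13.

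Sgsh, Hgsnat and Naglu act in turn on the glucosamine residues of the same chains, the sulfamidase removing the sulfate, the acetyltransferase capping the amine and the glucosaminidase cutting the capped sugar. Loss of any of them causes a form of Sanfilippo syndrome. Sgsh stood at 7.32 and 7.67 on CX3CR1low and at 5.43 and 5.97 on CX3CR1bright arrays, a difference of -1.79 ± 0.26, or 3.47-fold lower (limma, adjusted p = 0.0831). Naglu stood at 8.84 on both CX3CR1low arrays and at 7.48 and 7.18 on CX3CR1bright arrays, a difference of -1.51 ± 0.20, or 2.85-fold lower (limma, adjusted p = 0.0761). Hgsnat stood at 10.26 on both CX3CR1low arrays and at 9.07 and 9.21 on CX3CR1bright arrays, a difference of -1.12 ± 0.18, or 2.18-fold lower (limma, adjusted p = 0.0913). For all 3 genes the gap between the subsets was at least as wide as 2-fold and the replicates of each subset lay closer together than the subsets.

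Ids and Idua, the sulfatase and the glycosidase of iduronate, serve heparan and dermatan sulfate alike. Idua stood at 7.90 and 8.10 on CX3CR1low and at 6.97 and 6.91 on CX3CR1bright arrays, a difference of -1.06 ± 0.19 (limma, adjusted p = 0.0978). Ids stood at 9.05 and 9.42 against 8.32 and 8.90, a difference of -0.63 ± 0.28 (limma, adjusted p = 0.310). The lower CX3CR1low array and the higher CX3CR1bright array of Ids were thus close. Gusb, the glucuronidase that acts on heparan, dermatan and chondroitin sulfate, stood at 10.40 and 10.53 against 10.28 and 10.56. Its arrays overlapped, at a difference of -0.046 ± 0.20, and its sign turned after quantile normalization and cyclic loess.

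Arsb, the sulfatase that removes sulfate from the galactosamine of dermatan and chondroitin sulfate, lay on the other side. It stood at 8.23 and 8.47 on CX3CR1low and at 9.40 and 9.47 on CX3CR1bright arrays. Both CX3CR1bright arrays were higher, at a difference of 1.08 ± 0.19, or 2.12-fold (limma, adjusted p = 0.0978). A dimmer probe set of the gene did not show it. It stood at 5.29 and 5.05 against 5.43 and 5.18, overlapped between the subsets and differed by 0.14. With the mean of both probe sets the difference was 0.61.

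Hyal2, a membrane-anchored hyaluronidase that starts the breakdown of long hyaluronan chains, stood at 8.79 and 8.95 against 6.90 and 7.73. It was lower on both CX3CR1bright arrays, which lay apart from each other, at a difference of -1.55 ± 0.32 (limma, adjusted p = 0.110). Hexa, the alpha subunit of beta-hexosaminidase, which trims both glycosaminoglycans and gangliosides, stood at 11.21 and 11.48 against 10.84 and 10.88 (difference -0.48 ± 0.20). Galns, the galactosamine sulfatase of keratan and chondroitin sulfate, stood at 8.005 and 8.04 against 7.46 and 7.78 (difference -0.40 ± 0.20). Both genes were lower without overlap and by less than 2-fold.

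**Figure D3:**
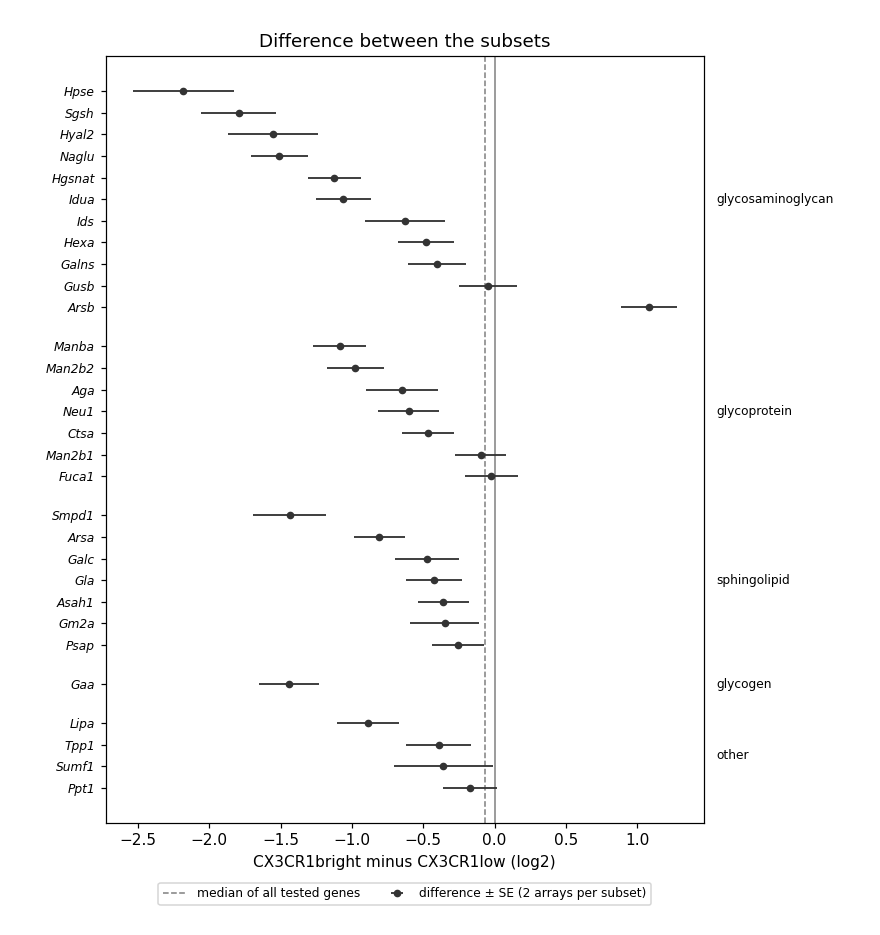
Difference of each hydrolase gene between the subsets (CX3CR1bright minus CX3CR1low, log2), with the SE of the limma fit as bars, by substrate class. The solid line marks 0 and the dashed line the median of all tested genes, -0.070; the genes run from Hpse at -2.18 to Arsb at 1.08.

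All 7 genes of glycoprotein breakdown had negative differences, against 57.5% of all tested genes. Their median was -0.60, and 6 were lower without overlap, against 31.5% of all tested genes. At an unadjusted p under 0.05 (limma) 5 were lower and 0 higher, against 11.8% and 7.03% of tested genes. Manba, the beta-mannosidase that cleaves the last mannose link of the N-glycan core, stood at 7.76 and 7.59 on CX3CR1low and at 6.59 and 6.58 on CX3CR1bright arrays. The difference was -1.09 ± 0.19 (limma, adjusted p = 0.0931). Man2b2, an alpha-mannosidase, stood at 8.51 and 8.23 against 7.43 and 7.35, a difference of -0.98 ± 0.20 (limma, adjusted p = 0.110). Both genes were lower on each CX3CR1bright array by a gap wider than the spread of either pair.

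The main lysosomal alpha-mannosidase gene, Man2b1, differed little by contrast. It stood at 10.57 and 10.53 against 10.43 and 10.47, a difference of -0.099 ± 0.18 that turned to 0.0097 under quantile normalization and 0.014 under cyclic loess. Fuca1, the fucosidase, stood at 9.31 and 9.18 against 9.26 and 9.18, overlapped and differed by -0.022 ± 0.18, a sign that turned under quantile normalization and cyclic loess. The mannosidases of the class therefore had unequal differences. A direct test between them was not made.

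Aga, the amidase that frees the glycan from asparagine, stood at 8.04 and 7.76 against 7.00 and 7.51, a difference of -0.65 ± 0.25 (limma, adjusted p = 0.260). Neu1, the lysosomal sialidase, and Ctsa, the carboxypeptidase that holds it in an active complex, are partners. Neu1 stood at 8.38 and 8.44 against 7.62 and 7.99 (difference -0.60 ± 0.21), and Ctsa at 10.91 and 10.87 against 10.47 and 10.37 (difference -0.47 ± 0.18). Their adjusted p-values were 0.226 and 0.259 (limma). Both partners were lower on each CX3CR1bright array.

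The 7 sphingolipid genes were lower on both CX3CR1bright arrays without exception, where 31.5% of all tested genes were, with a class median of -0.43. In Gm2a the nearest arrays of the subsets, at 9.35 and 9.33, almost met. At an unadjusted p under 0.05 (limma) 2 of the 7 were lower, against 11.8% of tested genes. Smpd1, the acid sphingomyelinase, stood at 6.58 and 7.17 on CX3CR1low and at 5.43 and 5.45 on CX3CR1bright arrays. The difference was -1.44 ± 0.26, or 2.70-fold lower (limma, adjusted p = 0.0977). Its dimmer probe set stood at 4.55 and 5.09 against 4.12 and 4.63, overlapped and differed by -0.44, and with the mean of both the difference was -0.94. Arsa, the sulfatase of the myelin-type lipid sulfatide, stood at 6.97 and 6.92 against 6.16 and 6.11, a difference of -0.81 ± 0.18 (limma, adjusted p = 0.124). In Arsa both pairs of replicates were tight.

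The remaining sphingolipid genes differed less. Galc, which cleaves galactosylceramide, stood at 7.53 and 7.49 against 7.26 and 6.82 (difference -0.47 ± 0.22). Gla, the alpha-galactosidase lost in Fabry disease, stood at 9.31 and 9.18 against 8.70 and 8.94 (difference -0.43 ± 0.20). Asah1, the acid ceramidase, stood at 10.11 and 10.05 against 9.70 and 9.74 (difference -0.36 ± 0.18). None of these 3 had an unadjusted p under 0.05 (limma), although none overlapped. The activators had the smallest differences of the class, though within the errors of those 3. Gm2a, the ganglioside activator, stood at 9.49 and 9.35 against 9.33 and 8.81 (difference -0.35 ± 0.24). Psap, the precursor of the saposins, stood at 11.86 and 11.98 against 11.70 and 11.62 (difference -0.26 ± 0.18).

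Gaa, the acid alpha-glucosidase that degrades glycogen and is lost in Pompe disease, was the only listed gene of its class. It stood at 7.26 and 7.40 on CX3CR1low and at 6.05 and 5.73 on CX3CR1bright arrays. Both CX3CR1bright arrays were lower, at a difference of -1.44 ± 0.21, or 2.72-fold (limma, adjusted p = 0.0819).

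Of the genes outside these substrate classes, Lipa encodes the acid lipase of cholesteryl esters and triglycerides. It stood at 9.56 and 9.54 against 8.86 and 8.47, a difference of -0.89 ± 0.22 (limma, adjusted p = 0.139). Tpp1 and Ppt1 encode a peptidase and a thioesterase that strips fatty acids from proteins, and the loss of either causes a neuronal ceroid lipofuscinosis. Tpp1 stood at 9.75 and 9.41 against 9.34 and 9.04 (difference -0.39 ± 0.23), and Ppt1 at 9.66 and 9.47 against 9.42 and 9.35 (difference -0.17 ± 0.19). Neither had an unadjusted p under 0.05 (limma). Sumf1 encodes the enzyme of the endoplasmic reticulum that activates all sulfatases, among them those of Sgsh, Ids, Arsb, Galns and Arsa. It stood at 5.49 and 6.13 against 5.81 and 5.09, with overlap, at a difference of -0.36 ± 0.35. The sulfatases themselves ran from -1.79 for Sgsh to 1.08 for Arsb.

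**Figure D4:**
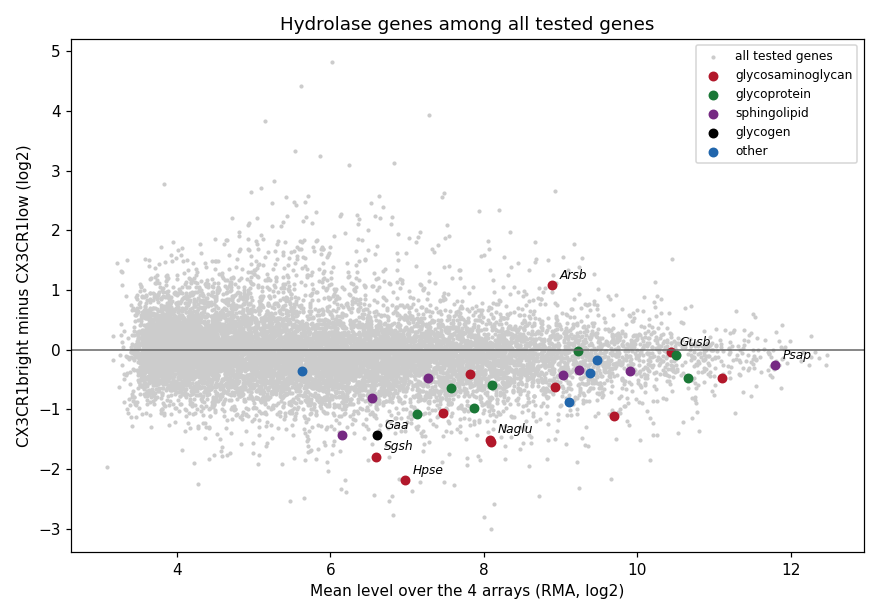
Difference between the subsets (CX3CR1bright minus CX3CR1low, log2) against the mean level over the 4 arrays (RMA, log2) for all 13133 tested genes in grey and the 30 hydrolase genes in colour by substrate class. The hydrolase genes lie below 0 except for Arsb at 1.08, and those nearest 0, Gusb, Fuca1 and Man2b1, turn sign after quantile normalization and cyclic loess.

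Genes that work alongside the hydrolases were read from the same fit. Of 25 related hydrolases of lysosomal or neighbouring routes, 17 were measured and 16 tested. The median difference was -0.20, and none had an adjusted p under 0.05 (limma). At an unadjusted p under 0.05 (limma) there were 6 lower and 0 higher, against 11.8% and 7.03% of all tested genes. Hyal3, a further hyaluronidase, stood at 7.57 and 7.26 against 6.12 and 6.07 (difference -1.32 ± 0.20). Sgpp1, a phosphatase of sphingosine phosphate in the endoplasmic reticulum, differed by -1.29 ± 0.20, and Pld3, a lysosomal exonuclease, by -1.05 ± 0.22. Their adjusted p-values were 0.0850, 0.0910 and 0.114 (limma).

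Newly made hydrolases are tagged with mannose phosphate in the Golgi and carried to the lysosome by receptors. Of 10 measured genes of this delivery route 6 had negative differences, close to the 57.5% of all tested genes, with a median of -0.24. At an unadjusted p under 0.05 (limma) 3 were lower and 1 higher, against 11.8% and 7.03% of tested genes, and 0 passed after adjustment. Gnptg, a subunit of the tagging enzyme, differed by -0.79 ± 0.19, Nagpa, which uncovers the tag, by -0.73 ± 0.19, and Cln8, a carrier of new hydrolases out of the endoplasmic reticulum, by -0.89 ± 0.24. The higher gene, chosen after its value was seen, was Gnptab, the catalytic subunit of the tagging enzyme, at 7.54 and 7.47 against 8.09 and 7.89 (difference 0.49 ± 0.19). The receptor genes M6pr and Igf2r, also chosen after their values were seen, differed by 0.19 ± 0.18 and -0.73 ± 0.37.

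All 15 genes of the lysosomal membrane and of export from the lysosome had negative differences, against 57.5% of all tested genes. Their median was -0.45, and 14 were lower without overlap, against 31.5% of all tested genes. At an unadjusted p under 0.05 (limma) 6 were lower, against 11.8% of tested genes, and 0 passed after adjustment. Glmp, a glycosylated membrane protein, stood at 9.24 and 9.38 against 8.34 and 7.96 (difference -1.16 ± 0.22). Mfsd8, a membrane transporter-like protein, differed by -0.86 ± 0.20 and Tmem192 by -0.82 ± 0.23. The list shares Cd68 with the macrophage list.

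Of the 4 genes of the MiT family of transcription factors, which includes known drivers of lysosomal genes, Tfec stood at 8.70 and 9.05 against 7.81 and 6.81. It was lower on both CX3CR1bright arrays, which lay 1 unit apart, at a difference of -1.56 ± 0.37 (limma, adjusted p = 0.137). Tfe3 differed by -0.37 ± 0.19, Mitf by 0.33 ± 0.18 and Tfeb, with overlap, by -0.24 ± 0.23. None of these 3 had an unadjusted p under 0.05 (limma).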

How the data were processed

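RNA of 4 sorted samples was measured on Affymetrix arrays. The deposited log2 levels came from RMA, run in Expression Console 1.4 by the authors according to the submitters' processing notes; the annotation release is not given in the sources used here. Of 34390 transcript clusters, 23521 carried 1 gene symbol, 1814 several and 9055 none. Single-symbol clusters were used, the one with the highest mean for each gene. Genes above the array's median on 2 or more arrays were tested. The fit across all 13133 genes used limma 3.58.1 in R 4.3.3 (lmFit, eBayes, two-sided, Benjamini-Hochberg), with 2 residual and 3.28 prior degrees of freedom. Precision is limited by the number of arrays, and p-values reflect how pools, not single mice, vary.

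Members and lists were chosen with earlier results of these data known. The rule for genes named in full took up to 5 members per substrate class with the smallest p, the brightest and dimmest member, and up to 3 genes of each related list. Array values of the other members were added to it. So were Tfeb, the delivery genes marked in the text and the named cell type genes. Alternatives were other filters, the mean of a gene's clusters, other scalings, an intensity trend, a robust prior, the replicate number as a block, and each array left out.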

Additional observations from a re-analysis of the deposited data

How the results depend on the processing

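The median difference of the hydrolase genes was negative under every setting run, between -0.63 and -0.42. It moved by less than 0.14, which is the SD of the members' median level, not of the difference, between replicate arrays. The sign was kept by 27 of the 30 genes under each scaling, the mean of a gene's clusters and each array left out. The exceptions were Gusb, Fuca1 and Man2b1. With each array left out, Sumf1 ran from -0.72 to -0.0009 and Gm2a from -0.61 to -0.091, both nearest 0 without CX3CR1bright replicate 2. The number of hydrolases past the adjusted threshold was 0 in the fit as reported, 10 with the stricter filter, 9 with the intensity trend, and 0 to 1 with each array left out, the 1 being Hpse without CX3CR1bright replicate 1. The stricter filter dropped Sgsh, Hpse, Smpd1 and Sumf1. The number of all genes past it was 18, against 1 with no filter, 435 with the stricter filter, 1 after quantile normalization, 33 after cyclic loess, 308 with the intensity trend, 1 with the robust prior, and 0 to 154 with each array left out. The cause of these shifts was not tested. No source used here ties same-numbered arrays to 1 litter, and their deviations correlated at 0.16 across genes. With the replicate block, 0 genes passed (limma, 2637 at an unadjusted p under 0.05), and the members' median was -0.54. With 1 array left out, the lone array of its subset is assumed to vary like the others. Without detection calls, how far signal over background limits the dimmer genes was not tested.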
